A study of Mus musculus with 14 samples.

Results

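Mitochondria fuse and divide continuously, and 10 genes of this machinery and of mitochondrial biogenesis were followed here across the mouse hypothalamus: Mfn1, Mfn2, Opa1, Dnm1l, Fis1, Mff, Oma1, Yme1l1, Tfam and Ppargc1a. They were listed by symbol, with no threshold on their values. For each, the probe set that names only that gene and has the highest mean over the 14 arrays gave its level, which covered 9 of the 10 genes among 17097 genes tested. Every probe set of Ppargc1a also names Asic2, so Ppargc1a had no level of its own.

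Hypothalamic RNA was hybridised to Affymetrix HT MG-430 PM arrays. Mice were 12 weeks old on a mixed C57Bl/6J, FVB/N and 129 background. Control mice are labelled only as control, and knockout mice (POMCMfn1KO) lacked Mfn1 in POMC neurons only, the pro-opiomelanocortin neurons that lower food intake. Each genotype was studied randomly fed, with 4 arrays, and after 16 h without food, with 3 arrays. The sources used here name neither the floxed allele nor the Cre line, and do not state how many mice went into each array, so the spread behind every p-value is that between arrays and may be technical. POMC neurons are a small part of the tissue, and in bulk RNA fewer cells of a type cannot be told apart from less RNA per cell. The series title ties mitofusin 1 in these neurons to glucose sensing and insulin release.

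Outer membranes are joined by the mitofusins, which are the GTPases Mfn1 and Mfn2, and inner membranes by the GTPase Opa1. Opa1 is kept in balance between long and short forms by the inner membrane proteases Oma1 and Yme1l1. Division needs the dynamin-related GTPase Dnm1l, also called Drp1, which is drawn to the outer membrane by Mff and, in many organisms, Fis1. Tfam packages mitochondrial DNA and acts in its transcription, and Ppargc1a, or PGC-1 alpha, co-activates the nuclear genes that build new mitochondria. Mitochondrial shape in POMC and AgRP neurons is known to shift with feeding.

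The start regions of 3 members are printed to show where the deleted gene, its inner membrane counterpart and the mitochondrial DNA factor begin, and which short motifs lie there. Each is the 250 bases before the RefSeq start site in GRCm38.p6, on the gene's own strand, with motif matches in capitals. They are at chr3:32529232-32529481 on the plus strand for Mfn1, chr16:29579084-29579333 on the plus strand for Opa1, and chr10:71238045-71238294 on the minus strand for Tfam.
Mfn1: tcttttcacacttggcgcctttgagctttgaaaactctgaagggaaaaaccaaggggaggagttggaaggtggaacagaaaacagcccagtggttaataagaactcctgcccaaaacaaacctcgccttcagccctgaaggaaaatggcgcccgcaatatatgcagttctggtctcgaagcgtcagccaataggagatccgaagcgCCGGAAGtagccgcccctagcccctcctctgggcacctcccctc
Opa1: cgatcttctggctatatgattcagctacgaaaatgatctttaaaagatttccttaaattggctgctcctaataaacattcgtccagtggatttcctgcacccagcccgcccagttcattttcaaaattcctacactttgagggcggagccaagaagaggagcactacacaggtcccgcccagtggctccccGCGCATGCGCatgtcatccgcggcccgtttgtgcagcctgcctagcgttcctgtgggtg
Tfam: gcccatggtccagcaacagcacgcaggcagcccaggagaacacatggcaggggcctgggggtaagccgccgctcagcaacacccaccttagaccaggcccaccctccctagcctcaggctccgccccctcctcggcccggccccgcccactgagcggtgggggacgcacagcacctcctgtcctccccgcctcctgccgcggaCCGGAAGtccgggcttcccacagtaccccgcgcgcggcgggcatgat

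The capitals mark CCGGAAG, the core read by ETS factors such as GABPA, in Mfn1 at -44 and in Tfam at -47 from the start site, and the core of NRF1, which is GCGCA followed by its reverse complement TGCGC, in Opa1 at -59. Both motifs were searched on both strands of 300-base windows, 250 before to 50 after the start. The ETS core lay in 6 of 15 start regions of the members, from 5 of 10 genes, against 8.86% of 32851 start regions in the RefSeq table. Its other holders were Fis1 at -18 and, in a second start region, at 20, Yme1l1 at -73, -19 and 4, and Dnm1l at 13. The NRF1 core lay in 1 of 15 member start regions, that of Opa1, against 0.971% of all. The ERR motif AAGGTCA (4.72% of all start regions) and the CRE TGACGTCA (1.79% of all start regions) were found in none of the members' windows, which says only that those letters are not in these windows. These are matches of letters, not sites, and nothing measured here bears on binding to them.

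Mfn1, the gene deleted in POMC neurons, was at 8.99, 9.08, 9.10 and 8.99 in the control fed arrays and at 9.03, 9.06, 9.03 and 9.12 in the knockout fed arrays, on the log2 scale. It was at 9.07, 9.07 and 9.05 in the control fasted arrays and at 9.11, 9.04 and 9.04 in the knockout fasted arrays. No group stood apart, and the 14 arrays spanned 0.13 log2 units in all. Averaged over feeding states the knockout differed from control by 0.01 ± 0.03 (estimate ± SE, log2, adjusted p = 0.999 by limma over all 17097 genes), with a 95% interval from -4.35% to 6.01%. This was not a check of the knockout labels: where the probe sets lie relative to the deleted part of Mfn1 was not settled from the sources used, and the deletion touches only POMC neurons. A second Mfn1 probe set, 1426773_PM_at, ranged from 8.29 to 8.77 and 1419997_PM_at was near the background level of 3.64, the median of 23 probe sets without a target. The interaction of genotype and fasting at 1426773_PM_at was -0.25 ± 0.12 (adjusted p = 0.9997 by limma), so it did not pass. The 3 genes whose levels followed Mfn1 most closely over the 14 arrays, of 17096 searched, were Coa7 (Pearson's r 0.866), Nucb1 (0.864) and Poldip2 (0.837), given as a description of shared arrays.

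**Figure D1:**
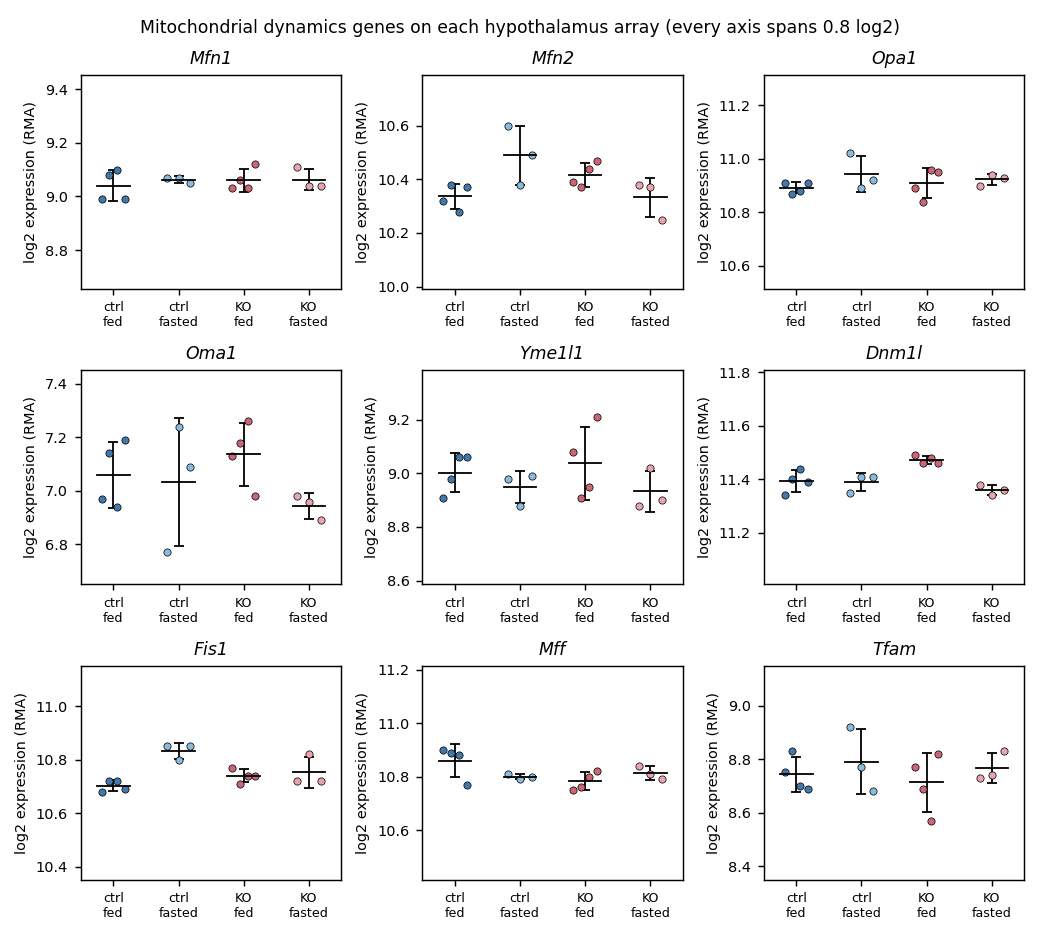
Deposited log2 values of the 9 measured members, one panel per gene, with one point per array in each of the 4 groups (ctrl, control; KO, knockout) and bars for the group mean and SD. The 4 knockout fed arrays of Dnm1l, from 11.46 to 11.49, lie above the other 10 arrays; most other groups overlap.

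Mfn2, the other mitofusin, was at 10.32, 10.38, 10.28 and 10.37 in control fed arrays and at 10.60, 10.38 and 10.49 in control fasted arrays. In the knockout it was at 10.39, 10.37, 10.44 and 10.47 fed and at 10.38, 10.37 and 10.25 fasted. The highest Mfn2 values, 10.60 and 10.49, were thus in fasted control arrays and the lowest, 10.25, in knockout fasted replicate 3, with overlap in both pairs. The other knockout fasted arrays, at 10.38 and 10.37, lay within the range of the control fed arrays. Fasting differed by 0.15 ± 0.06 in control mice (11.1% higher, 95% interval 1.61% to 21.6%, adjusted p = 0.203 by limma) and by -0.08 ± 0.06 in knockout mice (adjusted p = 0.525 by limma). The interaction of genotype and fasting was -0.24 ± 0.08 (adjusted p = 0.9999 by limma). It ranked 172 of 17097 genes by p and did not pass, and none of the genes tested did. Without control fasted replicate 1, the array at 10.60, the interaction was -0.18 and without control fasted replicate 2 it was -0.29. The fasting difference in control mice was then 0.10 and 0.21. In fasted mice alone the knockout minus control difference was -0.16 ± 0.06 (adjusted p = 1 by limma), and -0.10 without control fasted replicate 1.

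Opa1, the inner membrane fusion GTPase, held between 10.84 and 11.02 in every array. Control fed arrays were at 10.91, 10.87, 10.88 and 10.91 and control fasted arrays at 11.02, 10.89 and 10.92. Knockout fed arrays were at 10.89, 10.84, 10.96 and 10.95 and knockout fasted arrays at 10.90, 10.94 and 10.93. All 4 groups overlapped, and fasting differed by 0.03 ± 0.03 averaged over genotypes (adjusted p = 0.614 by limma). Its other 2 probe sets, 1418768_PM_at and 1449214_PM_a_at, gave -0.04 ± 0.06 and 0.04 ± 0.08 for the same comparison.

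Of the proteases that cut Opa1, Oma1, active under stress, was the most variable member, with a within-group SD of 0.144 against 0.03 for Dnm1l and a median of 0.119 over all genes. It was at 6.97, 7.14, 6.94 and 7.19 in control fed and 6.77, 7.24 and 7.09 in control fasted arrays. In the knockout it was at 7.13, 7.18, 7.26 and 6.98 fed and 6.98, 6.96 and 6.89 fasted, so the fasted arrays sat at the low end of the knockout arrays. Fasting differed by -0.11 ± 0.07 averaged over genotypes (adjusted p = 0.371 by limma) and by -0.19 ± 0.10 in knockout mice (adjusted p = 0.373 by limma). The averaged difference was -0.04 without control fasted replicate 1, the array at 6.77, and -0.16 without control fasted replicate 2. Yme1l1, which cuts Opa1 constitutively, was at 8.91, 8.98, 9.06 and 9.06 in control fed and 8.98, 8.88 and 8.99 in control fasted arrays. It was at 9.08, 8.91, 8.95 and 9.21 in knockout fed and 8.88, 9.02 and 8.90 in knockout fasted arrays. Its fasting difference was -0.08 ± 0.05 (adjusted p = 0.378 by limma), and its groups overlapped. The other Yme1l1 probe sets did not share this direction throughout. At 1450954_PM_at the mean went from 8.485 fed to 8.52 fasted in control mice and from 8.43 to 8.48 in knockout mice. At 1423360_PM_at it went from 6.20 to 6.30 in control mice and from 6.35 to 6.21 in knockout mice.

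Among the division genes, Dnm1l was highest in knockout fed arrays, at 11.49, 11.46, 11.48 and 11.46. It was at 11.34, 11.40, 11.44 and 11.39 in control fed, 11.35, 11.41 and 11.41 in control fasted, and 11.38, 11.34 and 11.36 in knockout fasted arrays. The knockout fed arrays therefore lay above all 10 others, a pattern, in either direction, that 0.398% of genes showed for that group. No member was set apart in this way in control fasted (1.03% of genes), control fed (0.462%) or knockout fasted arrays (0.766%). The size was small: fed knockout exceeded fed control by 0.08 ± 0.04 (adjusted p = 0.995 by limma). Fasting differed by -0.11 ± 0.04 in knockout mice (adjusted p = 0.226 by limma) and by -0.00 ± 0.04 in control mice (adjusted p = 0.988 by limma). The interaction, -0.11 ± 0.06, did not pass (adjusted p = 0.9999 by limma). The next Dnm1l probe set, 1428087_PM_at, did not set the knockout fed arrays apart: they were at 10.36, 10.41, 10.49 and 10.34 against 10.28, 10.41, 10.41 and 10.36 in control fed arrays, a difference of 0.04 ± 0.06 (adjusted p = 0.997 by limma). It gave -0.09 ± 0.04 for fasting averaged over genotypes (adjusted p = 0.237 by limma).

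Fis1 was higher in every control fasted array, at 10.85, 10.80 and 10.85, than in control fed arrays, at 10.68, 10.72, 10.72 and 10.69. In the knockout it was at 10.77, 10.71, 10.74 and 10.74 fed and at 10.72, 10.82 and 10.72 fasted, which overlapped. Fasting differed by 0.13 ± 0.05 in control mice (9.49% higher, 95% interval 2.37% to 17.1%, adjusted p = 0.148 by limma) and by 0.01 ± 0.05 in knockout mice. Averaged over genotypes it was 0.07 ± 0.03 (adjusted p = 0.171 by limma), and the interaction, -0.12 ± 0.06, did not pass. The second Fis1 probe set, 1443819_PM_x_at, gave 0.16 ± 0.06 averaged over genotypes (adjusted p = 0.0996 by limma). Its mean was higher after the fast in both genotypes, from 9.44 fed to 9.63 fasted in control mice and from 9.445 to 9.56 in knockout mice. Mff, the main Dnm1l receptor, was at 10.90, 10.89, 10.88 and 10.77 in control fed and 10.81, 10.79 and 10.80 in control fasted arrays. It was at 10.75, 10.76, 10.80 and 10.82 in knockout fed and 10.84, 10.81 and 10.79 in knockout fasted arrays. The first 3 control fed arrays were thus the highest of all, and fed knockout differed from fed control by -0.08 ± 0.04 (adjusted p = 0.995 by limma).

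Tfam, the mitochondrial DNA factor, was at 8.75, 8.83, 8.70 and 8.69 in control fed and 8.92, 8.77 and 8.68 in control fasted arrays. It was at 8.77, 8.69, 8.57 and 8.82 in knockout fed and 8.73, 8.74 and 8.83 in knockout fasted arrays, so all groups overlapped. Fasting differed by 0.05 ± 0.05 (adjusted p = 0.579 by limma). Its second probe set, 1456215_PM_at, gave 0.24 ± 0.08 (adjusted p = 0.0658 by limma), which was the smallest adjusted p of the 84 comparisons made on the 12 other probe sets of the members, and none of those passed.

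Across the 9 measured members, 0 passed in any of the 7 comparisons at an adjusted p of 0.05 by limma. Among all genes, 10% passed for fasting averaged over genotypes, 2.76% for fasting in control mice and 0.696% in knockout mice. The share was 0.00585% for genotype averaged over feeding states and in fed mice, and 0% for genotype in fasted mice and for the interaction. At an unadjusted p under 0.05 there was 1 member for averaged fasting against 26% of genes, 2 in control mice against 17.5% and 1 in knockout mice against 16.5%. The 4 were Fis1 for averaged fasting, Fis1 and Mfn2 in control mice and Dnm1l in knockout mice. There were 0 for averaged genotype and fed genotype, 1 for fasted genotype and 1 for the interaction, both Mfn2, against 4.65%, 4.62%, 3.87% and 3.83% of genes. Groups did not overlap for 1 member, Fis1, in control fasting (16.5% of genes), for 1, Dnm1l, in knockout fasting (13%) and for 1, Dnm1l, between fed genotypes (2.46%). For averaged fasting, averaged genotype and fasted genotype there were 0, against 3.4%, 0.0585% and 7.64% of genes. For averaged fasting the 95% intervals of all 9 members lay between -16.9% and 11.8%, and for averaged genotype between -10.7% and 11.0%.

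**Figure D2:**
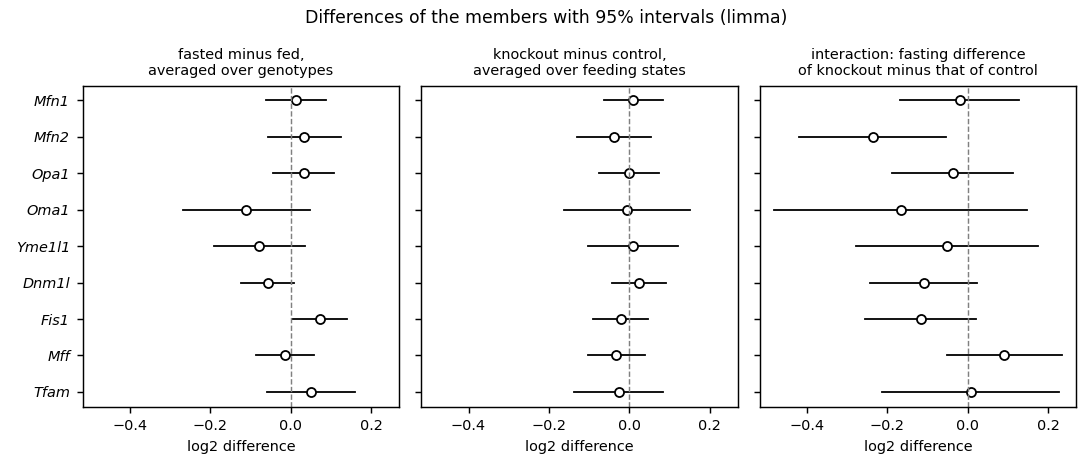
Log2 differences of the 9 measured members with 95% intervals, in panels for averaged fasting, averaged genotype and their interaction; the dashed line marks no difference. No member passed an adjusted p of 0.05 by limma in any panel. The intervals of Mfn2 in the interaction, from -0.42 to -0.05, and of Fis1 in averaged fasting lie to one side of 0.

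The 5 probe sets that name both Ppargc1a and Asic2 all had positive differences after the fast, and their signal cannot be assigned to either gene. Probe set 1456395_PM_at was at 9.11, 9.16, 9.03 and 9.14 in control fed, 9.32, 9.54 and 9.41 in control fasted, 9.28, 8.99, 9.02 and 9.07 in knockout fed, and 9.40, 9.27 and 9.27 in knockout fasted arrays. Probe set 1460336_PM_at was at 9.74, 9.81, 9.84 and 9.73 in control fed, 10.01, 9.98 and 10.06 in control fasted, 9.90, 9.83, 9.88 and 9.94 in knockout fed, and 9.96, 9.93 and 9.92 in knockout fasted arrays. In control mice the fasted arrays lay above the fed arrays for all 5 probe sets, as in 7.42% of probe sets, and in knockout mice they overlapped for all 5, where 12.6% of probe sets did not overlap in either direction. Averaged over genotypes, fasting differed by 0.27 ± 0.05 (adjusted p = 0.0097 by limma over 29449 probe sets) and 0.14 ± 0.04 (adjusted p = 0.0276) for these 2, and the other 3 gave 0.15 to 0.18 with adjusted p of 0.111 to 0.218. So 2 of the 5 passed, against 8.69% of probe sets; in control mice 1 passed, 1460336_PM_at at 0.24 ± 0.05 (adjusted p = 0.0298), against 2.28%, and in knockout mice 0 passed, against 0.638%. The interaction of 1460336_PM_at was -0.19 ± 0.07 (adjusted p = 0.9997 by limma), so the genotypes were not shown to differ.

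Asic2's own probe set, 1417994_PM_a_at, ranged from 8.62 to 8.78 in fed and 8.65 to 8.85 in fasted arrays, a difference of 0.01 ± 0.04 (adjusted p = 0.859 by limma). For the shared probe set 1456395_PM_at, the averaged call held on leaving out each of the 14 arrays in turn. The averaged call of 1460336_PM_at was lost on leaving out a single array (in control mice, fasted replicate 1 or 3 or fed replicate 4; in knockout mice, fasted replicate 1 or 2 or fed replicate 2 or 3), with adjusted p of up to 0.0713. Its call in control mice was lost without any one of control fasted replicates 1, 2 and 3 and control fed replicates 1, 2 and 4, with adjusted p of up to 0.127. All 6 fasted arrays and knockout fed replicate 1 carry low numbers in their titles and the other 7 fed arrays high ones; with this split as a covariate, 1456395_PM_at was at 0.047 (adjusted p = 0.930) and 1460336_PM_at at 0.13 (adjusted p = 0.636). In control mice fasting and this number split are inseparable, since every fasted array carries a low number and every fed array a high one. Only the knockout fed group holds both kinds. The values with the covariate are therefore set by how knockout fed replicate 1 differs from the rest of its group. Knockout fed replicate 1, the fed array with a low number, was above replicates 2 and 3 in all 5 shared probe sets. It was the highest knockout fed array in 2 of the 5, and replicate 4, with a high number, was highest in the other 3. The part of the number split in these levels was not tested.

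**Figure D3:**
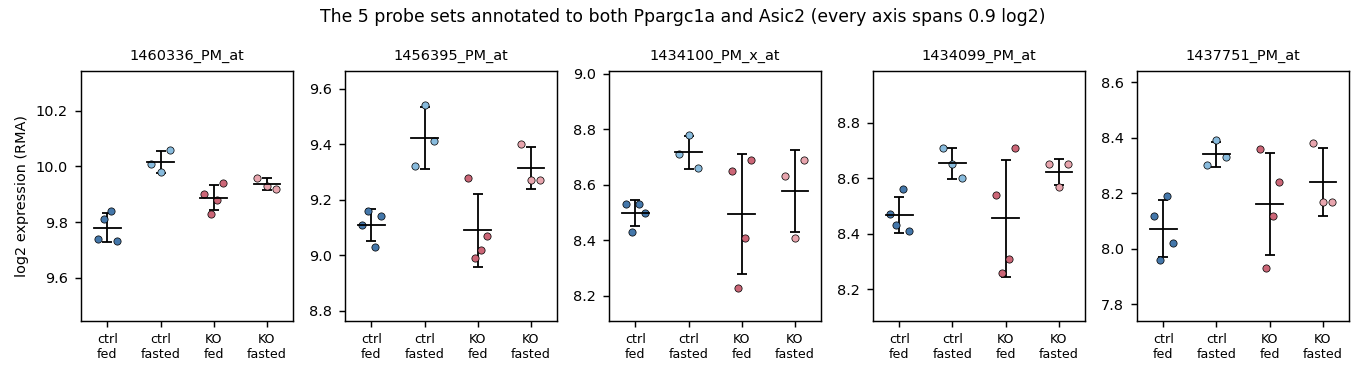
Deposited log2 values of the 5 probe sets that name Ppargc1a and Asic2 together, one panel per probe set, with one point per array in the 4 groups (ctrl, control; KO, knockout) and bars for the group mean and SD. In control mice the fasted arrays lie above the fed arrays in all 5 panels; in knockout mice the fed and fasted arrays overlap.

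The wider mitochondrial machinery was read from 7 further lists of 102 genes, 92 of them measured. Averaged over genotypes, 6 rose and 3 fell after the fast, together 9.78% of those measured; among all genes 5.14% rose and 4.9% fell, with 10% passing in all. The lists had a median difference of 0.03 against 0.00 over all genes; in the other 6 comparisons none passed. The share that passed was thus close to that of all genes tested.

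All 14 measured fusion partners and inner membrane proteases were on the positive side after the fast averaged over genotypes, with a median of 0.10. Among all genes 8684 of 17097 were positive. The lists were chosen with earlier results of these data known, so this count is a description only. In knockout mice alone 12 were positive and 2 negative. Of these, 4 rose: Spg7, the paraplegin subunit of the m-AAA protease (0.24 ± 0.06, adjusted p = 0.0296), Htra2, an intermembrane space protease (0.18 ± 0.05, adjusted p = 0.0453), Parl, a rhomboid protease (0.15 ± 0.04, adjusted p = 0.0388), and Clpp, a matrix protease (0.14 ± 0.04, adjusted p = 0.0310), all by limma. Parl stood at 9.25 ± 0.07 (SD, n = 4) in control fed and 9.42 ± 0.05 (SD, n = 3) in control fasted mice, and at 9.32 ± 0.08 and 9.46 ± 0.08 in the knockout. Clpp stood at 10.01 ± 0.06 (SD, n = 4) in control fed and 10.10 ± 0.01 (SD, n = 3) in control fasted mice.

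In the list of fission adaptors and regulators, 2 of 15 measured genes rose and 1 fell. Dnm2, a dynamin that acts in membrane scission, rose by 0.30 ± 0.06 (adjusted p = 0.0103 by limma), going from 6.97 ± 0.09 (SD, n = 4) to 7.27 ± 0.19 (SD, n = 3) in control mice, with 6.87 to 7.10 across knockout fed arrays against 7.21 to 7.38 across knockout fasted arrays. Spire1, an actin nucleator with a mitochondrial isoform, rose by 0.22 ± 0.05 (adjusted p = 0.0171). Akap1, which anchors protein kinase A at the outer membrane, changed by -0.22 ± 0.06 (adjusted p = 0.0294), from 7.91 ± 0.12 (SD, n = 4) to 7.69 ± 0.05 (SD, n = 3) in control mice.

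Of the other lists, mitochondrial transport had 1 of 9 lower, Fez1, a kinesin adaptor (-0.15 ± 0.04, adjusted p = 0.0270 by limma), and biogenesis and DNA maintenance had 1 of 23 lower, Prkaa2, a catalytic subunit of AMP-activated kinase (-0.17 ± 0.05, adjusted p = 0.0386). Cristae junction assembly, mitophagy and ER contact genes had 0 of 11, 0 of 12 and 0 of 9, with Dnajc11 (0.12, adjusted p = 0.218), Fkbp8 (0.10, adjusted p = 0.113) and Vdac1 (0.10, adjusted p = 0.0919) the lowest p in each. The 9 genes that passed kept their sign in all 22 alternatives. None passed with the number split as a covariate, an adjustment that rests on knockout fed replicate 1 alone. There Parl was at 0.04, Spg7 at 0.12, Htra2 at 0.31, Akap1 at -0.40 and Prkaa2 at -0.32. Averaging all probe sets of each gene put Dnm2 at 0.17 (adjusted p = 0.0588 by limma), Spire1 at 0.14 (adjusted p = 0.100) and Akap1 at -0.20 (adjusted p = 0.0591), so these 3 did not pass. With the Actb 3' minus 5' difference, a measure of RNA quality, as a covariate, Clpp, Htra2, Parl and Prkaa2 did not pass and the other 5 did. Leaving out 1 array left between 2 (control fasted replicate 1 or knockout fasted replicate 2) and 9 of the 9 passing, with 3 left on dropping either control fasted replicate 3 or, instead, control fed replicate 2. Dnm2 and Spire1 passed in 20 of 22 alternatives and Prkaa2 in 9 of 22.

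**Figure D4:**
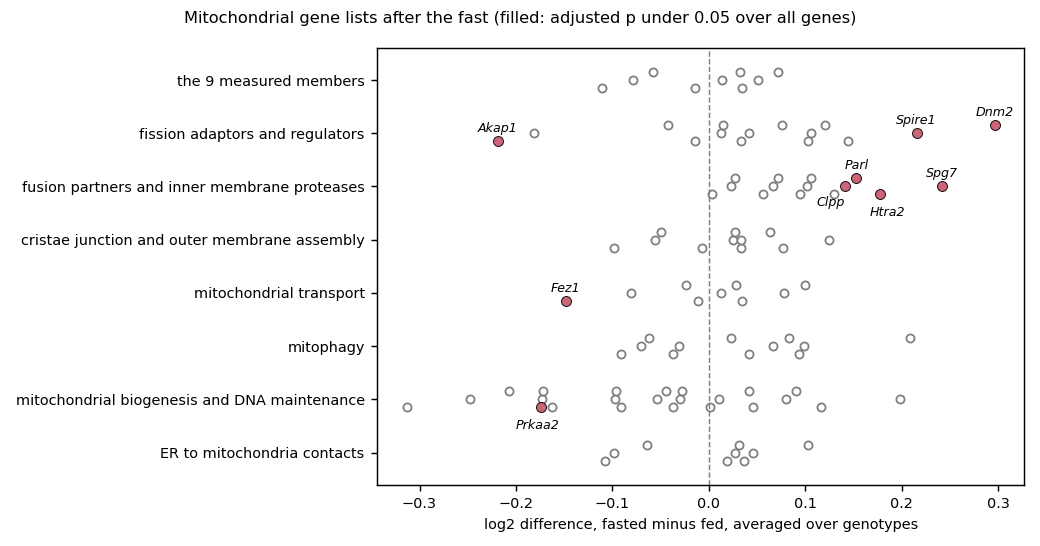
Log2 difference, fasted minus fed and averaged over genotypes, of each gene in the 7 mitochondrial lists and the 9 measured members; filled points passed an adjusted p of 0.05 by limma and are named. The 14 fusion partners and proteases all lie above 0, and the members lie between -0.11 and 0.07.

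Some markers of other cells moved with the fast, and others varied among arrays. Counts of markers that passed are for averaged fasting, where 4.9% of all genes were lower and 5.14% higher. The mean log2 level of 10 microglia genes was 7.19 to 7.42 in fed and 6.83 to 7.17 in fasted arrays, with 5 lower by limma. That of 10 astrocyte genes was 9.20 to 9.29 against 9.34 to 9.57, with 4 higher and 1 lower. The mean of 9 oligodendrocyte genes was 9.38 to 9.54 against 9.16 to 9.40, with 2 lower, Opalin (-1.19) and Ugt8a (-1.01), and 7 that did not pass; their median difference was -0.04, with 3 positive. All 9 measured cortex and hippocampus markers were on the negative side after the fast averaged over genotypes, with a median of -0.23 and 1 lower by limma. Control fed replicate 1 had their highest mean level, 7.40 against 6.28 to 6.74 in the other arrays. The other fed arrays were at 6.48 to 6.74 and the fasted arrays at 6.28 to 6.54, which overlapped. Without that array and knockout fed replicate 4 together, 5 of the 9 mitochondrial list genes that passed still did, and Akap1, Clpp, Fez1 and Parl were lost. The 8 choroid plexus and ependyma genes varied among arrays, and the genotypes overlapped. Their mean was 7.96 to 8.37 in the knockout arrays other than fed replicate 1, which was at 6.36. In control arrays it was 6.29 to 7.80. All 8 differences between genotypes were positive, with a median of 0.98, and 0 passed (lowest adjusted p = 0.491 by limma). The part of these markers in the differences of the mitochondrial genes, by fasting or by genotype, was not tested. The hypothalamic neuron markers Pmch, Avp, Oxt and Hcrt were at means of 12.4, 10.7, 10.6 and 10.6, Pomc was at 7.04, and the hypothalamic transcription factors Nkx2-1 (4.17) and Otp (3.83) were near background.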

How the data were processed

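For each of 14 samples, 150 ng of hypothalamic RNA was labelled and hybridised. The authors deposited log2 values, for which the submitters' processing notes name RMA and affy without versions. RMA compresses small differences of low probe sets. No genome build for the annotation is named in the sources used here. Array medians ran from 4.98 to 5.05, correlations between arrays from 0.9908 to 0.9968, and the arrays set the precision. A gene's level was that of its highest-mean probe set naming only it. limma 3.58.1 in R 4.3.3 fitted 1 coefficient per group over 14 arrays, with 7 contrasts, and adjusted p over 17097 genes by Benjamini-Hochberg, at a threshold of 0.05. Probe sets naming 2 genes were fitted over 29449 probe sets. The fits were tested on simulated data with noise drawn independently for each gene, so without variation shared among genes. The planted changes were larger than the members' differences at their chosen probe sets. The simulation therefore does not show how often differences as small as theirs would be found. From each further list, genes past the threshold were named, or else that with the smallest p. Members and lists were chosen with earlier results of these data known. Alternatives covered the filter, the probe set rule, the prior, quantile normalisation, covariates, array weights, groups fitted alone and each array left out. RefSeq GRCm38.p6 gave promoter sequences and names only.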

Additional observations from a re-analysis of the deposited data

Results flagged for a closer look

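Mff in control fed mice had 1 array apart from the rest: replicate 4 was at 10.77 on the log2 scale, against 10.88 to 10.90 in the other 3. The gap to the nearest array was 0.846 of the group's range. Of the 18 groups of 4 arrays examined this was the 1 that stood apart, and chance alone sets about 1 group in 20 apart.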

How the results depend on the processing

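The count of members past the threshold stayed at 0 in all but 1 of the alternatives tried: for fasting in control mice, a trended and robust prior gave 1, Fis1, at 0.13 with an adjusted p of 0.0377 by limma. Leaving out each array in turn gave 0 to 0 members in each of the 7 comparisons. The count of all genes past the threshold moved more, from 1715 for averaged fasting to between 998 and 2120 without 1 array. With the number split of the titles as a covariate, which rests on knockout fed replicate 1 alone, it was 15. For fasting in control mice it went from 472 to between 216 and 685 without 1 array, and for fasting in knockout mice from 119 to between 18 and 363. No paired analysis was possible because no number in the titles occurs in more than 1 sample. An alternative fitted after seeing the data covered the shared Ppargc1a and Asic2 probe sets and the named genes of the lists. The signal over background limits the low probe sets: 1419997_PM_at, 1451900_PM_at and 1428008_PM_at lie near the 3.64 of probe sets without a target.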
